A study of Mus musculus with 8 samples.

Results

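The genes described here are the Wnt ligands, their Frizzled receptors, the secreted inhibitors of the Sfrp and Dkk families with Frzb and Wif1, and Axin2, Lef1 and Tcf7, which are a feedback target and nuclear factors of the pathway. They were found by gene name on a mouse whole genome microarray and comprised 42 genes on 57 probes, out of 27597 gene names on the array. Of the 42 genes, 33 were well above background in at least 1 RNA extract, and 23 were measured in enough extracts to be tested for a difference between genotypes. The extracts came from mouse embryonic fibroblasts (MEFs), which are cells taken from embryos, of strain C57BL/6J, cultured without treatment in DMEM with fetal bovine serum. In each of 3 litters, numbered 112, 116 and 121, 1 extract was from Lats2-/- cells and 1 from Lats2+/+ cells, each from 1 culture with its own clone name, so that genotype and clone cannot be told apart within a litter. Lats2 encodes a kinase of the Hippo pathway, which restrains the coactivators YAP and TAZ. Both extracts of a litter were hybridised to the same 2-colour arrays, with the dyes swapped. Litters 112 and 116 had 2 arrays each, and litter 121 had 4. The age of the embryos is not given in the sources used here.

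Wnt proteins are secreted, lipid-modified ligands that bind Frizzled receptors together with the coreceptors Lrp5 and Lrp6. In the canonical branch this stabilises beta-catenin, which enters the nucleus and acts with Tcf and Lef factors on targets such as Axin2, and in other branches it acts on cell polarity and calcium. Sfrp proteins, Frzb and Wif1 bind the ligands outside the cell, whereas Dkk1 and Dkk2 bind the coreceptors. Fibroblasts both make and receive these signals.

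The labelled genotypes were checked at Lats2. One Lats2 probe (A_52_P425064) was lower in the Lats2-/- extract of every litter, with log2 ratios of -1.33, -1.05 and -0.56 (mean -0.98, SD 0.39). The other 3 Lats2 probes, which lie downstream of it, were lower in Lats2-/- cells of litters 112 and 116 and higher in those of litter 121, by 0.80 to 1.17 on the log2 scale. Which part of the gene was removed is not given in the sources used here, so that it is not known which of these probes checks the label. From 52.9% to 61.3% of probes were well above background per channel, and the log2 ratios of arrays of 1 litter correlated with r of 0.917 to 0.99 over the tested probes.

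Promoter windows of RefSeq, from 250 bases before to 50 after a start site in GRCm38.p6, were given for 30 of the 42 genes. They were searched for CTTTGA, the core letters of the Tcf and Lef motif, and for GGAATG, those of the TEAD factors that YAP and TAZ bind. Both strands were read. CTTTGA was in 6 of the 37 windows of these genes (16.2%) and in 16% of all 32851 windows. The 6 windows were those of Dkk1, Frzb and Fzd1 and 1 of the windows each of Lef1, Wnt11 and Wnt5b. GGAATG was in 1 of the 37 windows (2.7%), 1 of Wnt5b, and in 14.7% of all windows. The windows of 3 genes are printed to show the letters searched. Dkk1 has 2 Tcf and Lef matches, which begin at positions -174 and -117 from the start site and stand in capitals. Fzd7, with the lowest p among the tested genes of the list, and Sfrp2, with the largest mean ratio, have no match to either motif.
Dkk1, chr19:30549447-30549746, minus strand: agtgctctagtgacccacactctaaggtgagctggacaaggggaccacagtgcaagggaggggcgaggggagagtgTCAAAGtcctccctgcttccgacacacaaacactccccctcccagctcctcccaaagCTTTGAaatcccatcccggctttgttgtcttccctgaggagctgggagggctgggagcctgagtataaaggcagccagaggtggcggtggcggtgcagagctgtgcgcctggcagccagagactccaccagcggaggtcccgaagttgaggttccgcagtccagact
Fzd7, chr1:59481897-59482196, plus strand: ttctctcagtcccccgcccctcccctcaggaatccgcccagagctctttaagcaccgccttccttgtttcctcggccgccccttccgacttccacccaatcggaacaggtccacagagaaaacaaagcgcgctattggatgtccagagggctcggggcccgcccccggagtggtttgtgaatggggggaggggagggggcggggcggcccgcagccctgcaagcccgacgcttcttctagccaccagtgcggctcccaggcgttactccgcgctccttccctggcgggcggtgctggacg
Sfrp2, chr3:83766071-83766370, plus strand: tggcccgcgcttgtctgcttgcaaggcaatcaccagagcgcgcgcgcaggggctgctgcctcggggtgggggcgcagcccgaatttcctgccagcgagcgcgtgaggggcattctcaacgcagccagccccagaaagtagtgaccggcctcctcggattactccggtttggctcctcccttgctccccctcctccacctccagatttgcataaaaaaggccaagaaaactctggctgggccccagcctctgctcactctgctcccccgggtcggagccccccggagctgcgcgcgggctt
A match describes the letters only, and binding was not measured.

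Which of these genes the cells expressed was read from the flag for signal well above background. A gene was counted when at least 1 of its probes had the flag. Of the ligands, 13 of 19 Wnt genes were above background in some extract and 6 in all 6 extracts, namely Wnt1, Wnt5a, Wnt5b, Wnt6, Wnt7b and Wnt9a. For Wnt5b, Wnt6 and Wnt9a this rests on 1 probe each, and a second probe of each was above background in no extract. Of the 10 Frizzled receptors, 9 were above background in some extract and 7, Fzd1, Fzd2 and Fzd4 to Fzd8, in all 6. Of the 10 secreted inhibitors, 8 were above background in some extract, and only Dkk2 and Dkk3 in all 6. Among the nuclear factors and the target, Lef1 was above background in all 6 extracts and Tcf7 in 3. A further Lef1 probe was above background in no extract. Axin2, the usual readout of canonical signalling, was above background in 1 extract, from Lats2+/+ cells of litter 116. Wnt3, Wnt3a, Wnt7a, Wnt8a, Wnt8b, Wnt10a, Fzd10, Dkk4 and Wif1 were not well above background in any extract.

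**Figure D1:**
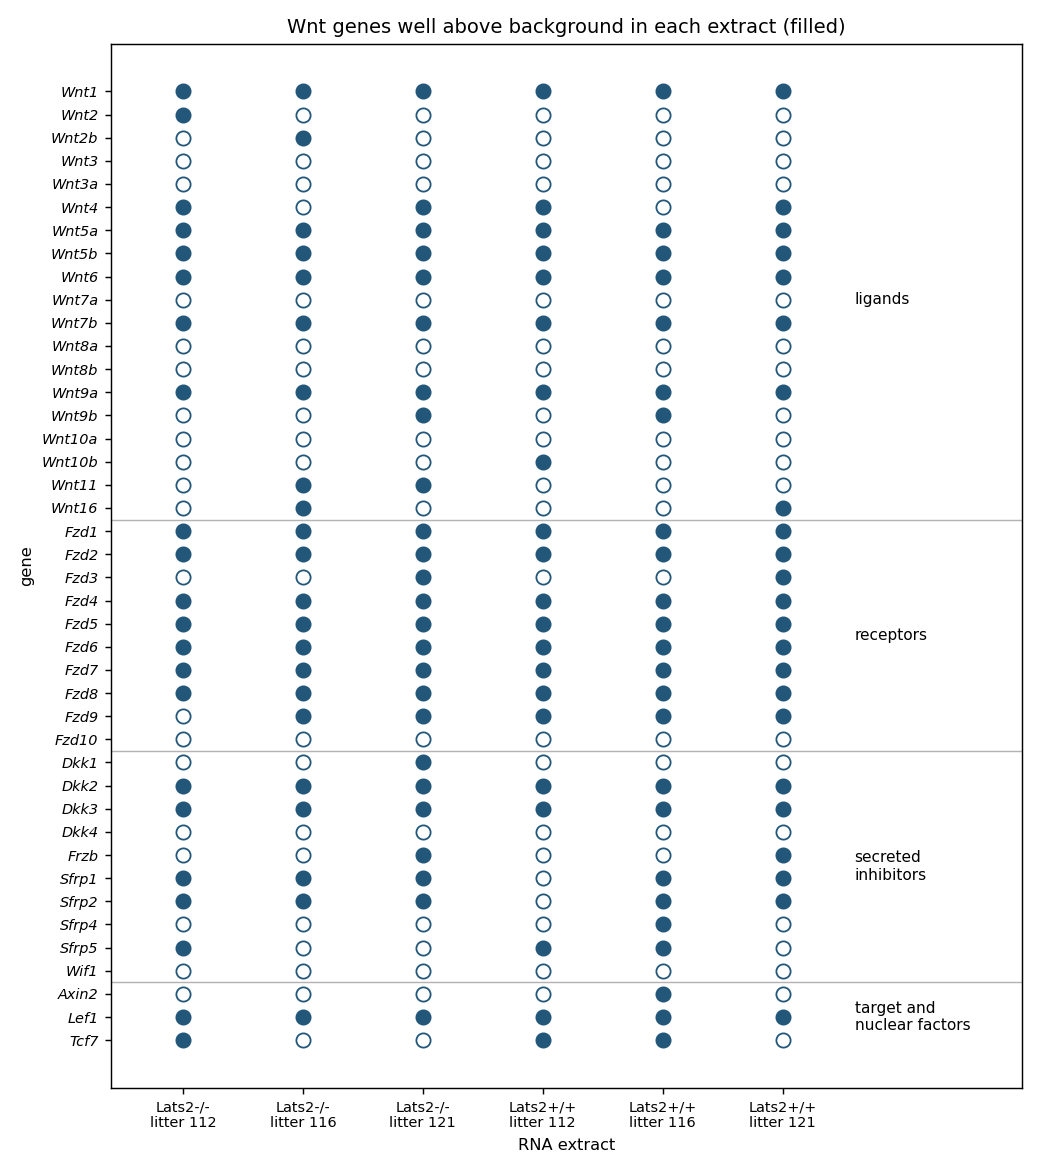
Detection of the 42 genes in the 6 RNA extracts, with genes in rows by role and extracts in columns. A filled circle marks a gene with at least 1 probe well above background on most arrays of that extract, and the receptors Fzd1, Fzd2 and Fzd4 to Fzd8 are filled in every column.

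The Lats2-/- over Lats2+/+ log2 ratio was taken within each litter, and limma tested the 3 litter ratios against 0. No probe on the array passed Benjamini-Hochberg adjustment at 0.05 (smallest adjusted p 0.634 over 22642 tested probes), against 1549 probes with an unadjusted limma p under 0.05. The adjusted p of the 23 tested genes lay between 0.711 and 0.996, so that no member is called changed. At 1 probe per gene, 2 of the 23 genes (8.7%), Fzd7 and Fzd9, had an unadjusted limma p under 0.05, against 7.6% of all 14727 tested genes. Both were lower in Lats2-/- cells, a direction in which 3.45% of all genes had such a p, and no member was in the higher direction, against 4.15% of all genes. With this processing the members' count is near the background. Both the count and its split by direction depended on the processing. It was 2 higher and 2 lower (17.4% of 23, against 7.25% of all genes) with a normexp offset of 16. With the processed signals of the scanner files it was 2 higher and 3 lower (21.7%, against 6.8% of all genes), and the same with the value table (against 6.78%). Without litter 116 it was 3 higher and 2 lower (21.7%, against 6.33%). No count is read with the slide as a block. Litter 121 is alone on its slide, so that the spread in that fit is that of litters 112 and 116.

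The ratios were next read litter by litter. Of the 23 members, 8 (34.8%) had 1 sign in all 3 litters, against 30% of all tested genes, again close to the background. At least 1 litter showed a 2-fold or larger difference for 11 members (47.8%), against 15.8% of all genes, and a 4-fold or larger one for 6 members (26.1%), against 4.6% of all genes. Those 6 were Fzd4, Fzd6, Dkk2, Dkk3, Sfrp1 and Sfrp2. Litter 121 carried 5 of the 6, and without it the 4-fold count was 2 of 23 (8.7%), against 2.87% of all genes. Fzd5, Fzd6 and Dkk2 (3 of 23, 13%) differed by 2-fold or more in opposite directions in different litters, Fzd5 by 1 of its 2 tested probes, against 2.25% of all genes. No member was at least 2-fold different in 1 direction in each litter. Over the 23 members the mean log2 ratio had a median of 0.02, and over all tested genes of 0.01, with median SDs over litters of 0.33 and 0.27. For 13 of the 23 members the SD of the log2 signal over the 3 Lats2+/+ extracts alone exceeded the size of the mean ratio. In bulk RNA such as this, fewer cells of a type and less RNA per cell cannot be told apart.

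**Figure D2:**
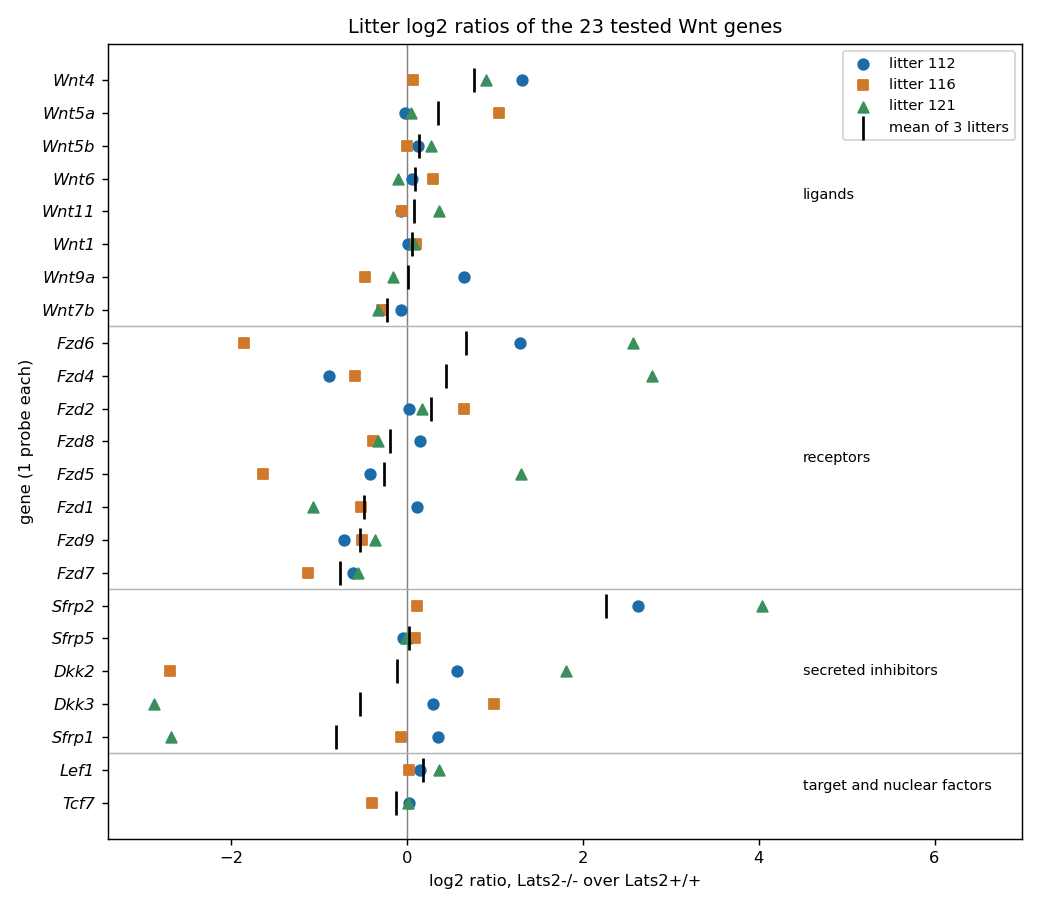
Log2 ratio of Lats2-/- over Lats2+/+ in litters 112, 116 and 121 for the 23 tested genes, 1 probe a gene, ordered by role and by the mean of the 3 litters (vertical tick). Fzd7 and Fzd9 lie below 0 in all litters, whereas Fzd4, Fzd6, Dkk2, Dkk3, Sfrp1 and Sfrp2 reach 4-fold (2 on this scale) in at least 1 litter and differ between litters.

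The 8 tested ligands had mean log2 ratios between -0.23 for Wnt7b and 0.76 for Wnt4, and none had an unadjusted limma p under 0.05. Wnt5a, the main ligand of the branches that do not use beta-catenin, had log2 signals of 8.16, 8.25 and 8.42 in Lats2-/- cells of litters 112, 116 and 121, and of 8.18, 7.20 and 8.37 in Lats2+/+ cells. The Lats2+/+ extract of litter 116 was the low one, and the other 5 extracts were alike, so that the mean ratio of 0.36 ± 0.60 (SD, n = 3 litters) was 0.02 without that litter. Wnt9a, a ligand with a role in joint formation, had signals of 9.20, 7.56 and 8.59 in Lats2-/- cells and of 8.55, 8.03 and 8.74 in Lats2+/+ cells. Its groups overlapped, and its mean ratio was 0.01 ± 0.58 (SD, n = 3). Without litter 112 the Wnt9a ratio was -0.31. Wnt6 was read at 7.33, 7.60 and 7.53 against 7.26, 7.30 and 7.64, a mean ratio of 0.09 ± 0.20 (SD, n = 3), which was -0.02 without litter 116.

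Wnt4, a ligand best known from kidney and gonad development, was looked at after its values were seen. Its log2 signals were 8.28, 6.15 and 7.34 in the Lats2-/- extracts and 6.98, 6.08 and 6.44 in the Lats2+/+ extracts, and it was not well above background in either extract of litter 116. The log2 ratios of 1.31 in litter 112 and 0.90 in litter 121 stood beside 0.07 in litter 116, with a mean of 0.76 ± 0.63 (SD, n = 3, limma adjusted p = 0.711). The other 4 tested ligands, Wnt1, Wnt5b, Wnt7b and Wnt11, had ratios within 0.37 of 0 in every litter. Their log2 signals lay between 6.25 and 6.91, near background, which limits these ratios. Wnt11 entered the test through Lats2-/- extracts alone, with 2 above background against 0 of Lats2+/+. Among ligands with too few extracts above background for a test, Wnt10b was detected only in Lats2+/+ cells of litter 112, with a level at least 2.37-fold over that of Lats2-/- cells. Wnt16 was detected in Lats2-/- cells of litter 116, there at least 1.82-fold over Lats2+/+ cells, and also in Lats2+/+ cells of litter 121. On each array a bound is against the dimmest flagged probe or, where brighter, the undetected extract's own reading, and both genes were picked with their values in view.

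The receptors held both of the members with an unadjusted p under 0.05. There were 8 tested receptors. Fzd7, a receptor of both branches, was read by probe A_52_P552665 at 8.60, 7.70 and 8.43 in Lats2-/- cells of litters 112, 116 and 121, and at 9.21, 8.82 and 8.99 in Lats2+/+ cells. Every Lats2+/+ extract was above every Lats2-/- extract. The log2 ratios were -0.61, -1.12 and -0.56, a mean of -0.76 ± 0.31 (SD, n = 3, 1.70-fold lower, limma adjusted p = 0.711), and 8 of 8 arrays had that direction. A second Fzd7 probe, A_51_P142107, did not show it. Its signals were 8.25, 8.51 and 8.79 against 8.26, 8.09 and 8.76, with a mean ratio of 0.14 ± 0.24 (SD, n = 3, limma adjusted p = 0.84). On the mm8 build of the array design, the first probe lies at chr1:59430894-59430953 and the second at chr1:59429069-59429128, upstream of it on the plus strand. The lower value of Fzd7 thus rests on 1 of its probes.

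Fzd9, a receptor studied mostly in brain and bone, was dim on this array (A_51_P511015), with log2 signals of 6.51, 6.52 and 6.55 in Lats2-/- cells and of 7.23, 7.03 and 6.91 in Lats2+/+ cells. Fzd9 was well above background in every Lats2+/+ extract and in the Lats2-/- extracts of litters 116 and 121, but not in that of litter 112. All Lats2-/- signals were thus at the edge of detection. The mean ratio was -0.53 ± 0.18 (SD, n = 3, limma adjusted p = 0.711), with 8 of 8 arrays in that direction. The ratio was largest in litter 112, at -0.71, the litter whose Lats2-/- extract was not detected. Without litter 112 the mean was -0.43 and its unadjusted limma p was no longer under 0.05. The size also moved with the processing, to -0.78 with a normexp offset of 16 and to -1.52 with either set of deposited processed values, which differ in background subtraction and in dye normalization.

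Fzd4, which also serves the ligand norrin in vessel growth, and Fzd6, a receptor of planar cell polarity, had ratios of different sign in different litters. The Fzd4 signals were 7.24, 8.66 and 10.19 in the Lats2-/- extracts and 8.12, 9.25 and 7.40 in the Lats2+/+ extracts. Lats2-/- cells were lower in litters 112 and 116, by log2 ratios of -0.88 and -0.59, and higher in litter 121, by 2.79. The mean was 0.44 ± 2.04 (SD, n = 3, limma adjusted p = 0.932), and without litter 121 it turned to -0.73, with an unadjusted limma p under 0.05. With the slide as a block it was 1.03, in the opposite direction. No p is read from that fit, in which litter 121 is alone on its slide.

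For Fzd6 the signals were 8.30, 7.46 and 10.55 in Lats2-/- cells and 7.01, 9.30 and 7.98 in Lats2+/+ cells. It had ratios of 1.29 and 2.57 in litters 112 and 121 and of -1.85 in litter 116. Its mean ratio of 0.67 ± 2.27 (SD, n = 3, limma adjusted p = 0.9) became -0.28 without litter 121 and 1.93 without litter 116, the last with an unadjusted limma p under 0.05. Fzd5, chosen after its values were seen, had ratios of -0.42, -1.64 and 1.30 by its brighter probe and of -0.01, -0.40 and 0.15 by a second probe above background in all 6 extracts, which does not show a 2-fold difference. Fzd4, Fzd5 and Fzd6 each had their highest ratio in litter 121.

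Fzd2 and Fzd1, the other receptors named for their high signal, did not reach a 4-fold difference in any litter. Fzd2 was read at 12.45, 13.05 and 12.75 in Lats2-/- cells and at 12.42, 12.40 and 12.58 in Lats2+/+ cells. The ratios of 0.02, 0.65 and 0.17 gave a mean of 0.28 ± 0.33 (SD, n = 3, limma adjusted p = 0.759), the largest of them in litter 116. A second Fzd2 probe gave -0.87, 0.17 and 0.57 and a mean of -0.04. Without litter 116 the mean of the first was 0.09. Fzd1 was read at 10.41, 9.71 and 8.87 in Lats2-/- cells and at 10.28, 10.23 and 9.94 in Lats2+/+ cells. It was lower in Lats2-/- cells of litters 116 and 121, and not in those of litter 112, with a mean ratio of -0.49 ± 0.60 (SD, n = 3, limma adjusted p = 0.754). The Fzd1 mean was -0.79 without litter 112, with an unadjusted limma p under 0.05, and -0.20 without litter 121, with a p above it. Fzd8 had ratios between -0.39 and 0.15.

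**Figure D3:**
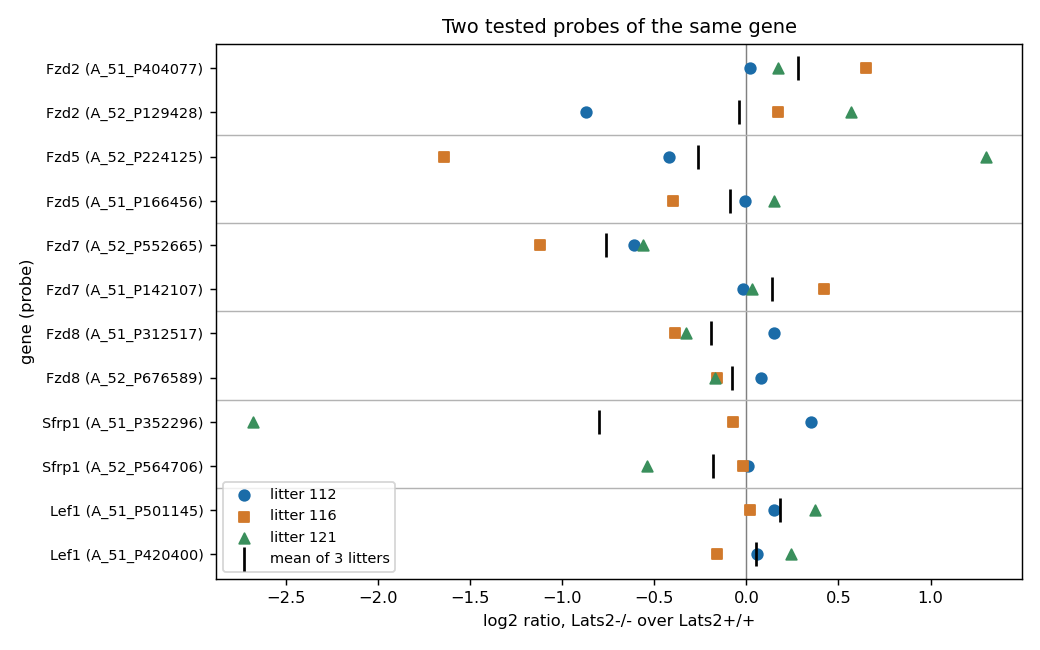
Log2 ratio of Lats2-/- over Lats2+/+ in 3 litters for the 6 genes of the list with 2 tested probes, with the probe in brackets. The 2 probes of Fzd7 have means of -0.76 and 0.14 and those of Fzd2 of 0.28 and -0.04, while the other 4 genes have means of 1 sign. The dimmer Sfrp1 probe was above background in 2 Lats2+/+ extracts and in no Lats2-/- extract.

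Secreted inhibitors gave the largest single ratios, in opposite directions. Sfrp2, which binds Wnt ligands and is a product of many mesenchymal cells, had log2 signals of 8.96, 6.65 and 11.17 in Lats2-/- cells of litters 112, 116 and 121, and of 6.33, 6.52 and 7.12 in Lats2+/+ cells. The Lats2-/- extracts of litters 112 and 121 were high and that of litter 116 was at the level of the Lats2+/+ extracts. The Lats2+/+ extract of litter 112 was not well above background, and Lats2-/- was at least 6.17-fold higher there. In litter 116 the log2 ratio was 0.12, and in litter 121 it was 4.04. The mean, with the measured 2.63 of litter 112, was 2.27 ± 1.99 (SD, n = 3, limma adjusted p = 0.711), and 8 of 8 arrays had that direction. The Sfrp2 mean was 3.34 without litter 116, with an unadjusted limma p under 0.05, and 2.08 and 1.38 without litters 112 and 121, with a p above it. It was 3.68 with the processed signals, also with an unadjusted p under 0.05.

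Sfrp1, a related inhibitor, was read at 7.14, 9.33 and 6.86 in Lats2-/- cells and at 6.79, 9.40 and 9.54 in Lats2+/+ cells. It was low in both extracts of litter 112, where the Lats2+/+ extract was not well above background, high in both of litter 116, and high only in the Lats2+/+ extract of litter 121, with a ratio of -2.68. The mean of -0.80 ± 1.64 (SD, n = 3, limma adjusted p = 0.823) became 0.14 without litter 121, and -1.27 with the slide as a block. A dimmer second probe of Sfrp1 was above background only in Lats2+/+ cells of litters 116 and 121, so that it entered the test through that genotype alone, and in litter 121 it gives a bound of at least 1.45-fold higher in Lats2+/+.

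Dkk2, which acts at the Wnt coreceptors, was the member with the widest spread among wild-type cells. Its signals were 10.35, 14.52 and 11.44 in Lats2+/+ cells of litters 112, 116 and 121, a range of 4.17 on the log2 scale, and 10.92, 11.83 and 13.25 in Lats2-/- cells. The Lats2+/+ extract of litter 116 was the highest of all 6. The ratios were 0.57, -2.69 and 1.81, with a mean of -0.11 ± 2.32 (SD, n = 3, limma adjusted p = 0.987), which turned to 1.19 without litter 116. Dkk3, a divergent member of the family, was read at 11.57, 12.74 and 9.12 in Lats2-/- cells and at 11.27, 11.76 and 12.00 in Lats2+/+ cells. Only the Lats2-/- extract of litter 121 was low, with a ratio of -2.88 against 0.30 and 0.99 in the other litters. The mean of -0.53 ± 2.06 (SD, n = 3, limma adjusted p = 0.916) was 0.64 without litter 121, and -1.12 with the slide as a block.

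Dkk1, a canonical target gene as well as an inhibitor, was described after its values were seen. Both of its probes detected it in Lats2-/- cells of litter 121 and in no other extract. The level there was at least 2.77-fold that of Lats2+/+ cells by probe A_51_P379069 and at least 1.81-fold by probe A_52_P508391. In the other litters neither extract was above background, so that no fold can be given. Sfrp4 was detected only in Lats2+/+ cells of litter 116, at least 1.58-fold over Lats2-/- cells. Sfrp5 was at the edge of detection with ratios within 0.09 of 0, and it entered the test through Lats2+/+ extracts alone. Frzb was above background only in the extracts of litter 121, with a ratio of 0.03.

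**Figure D4:**
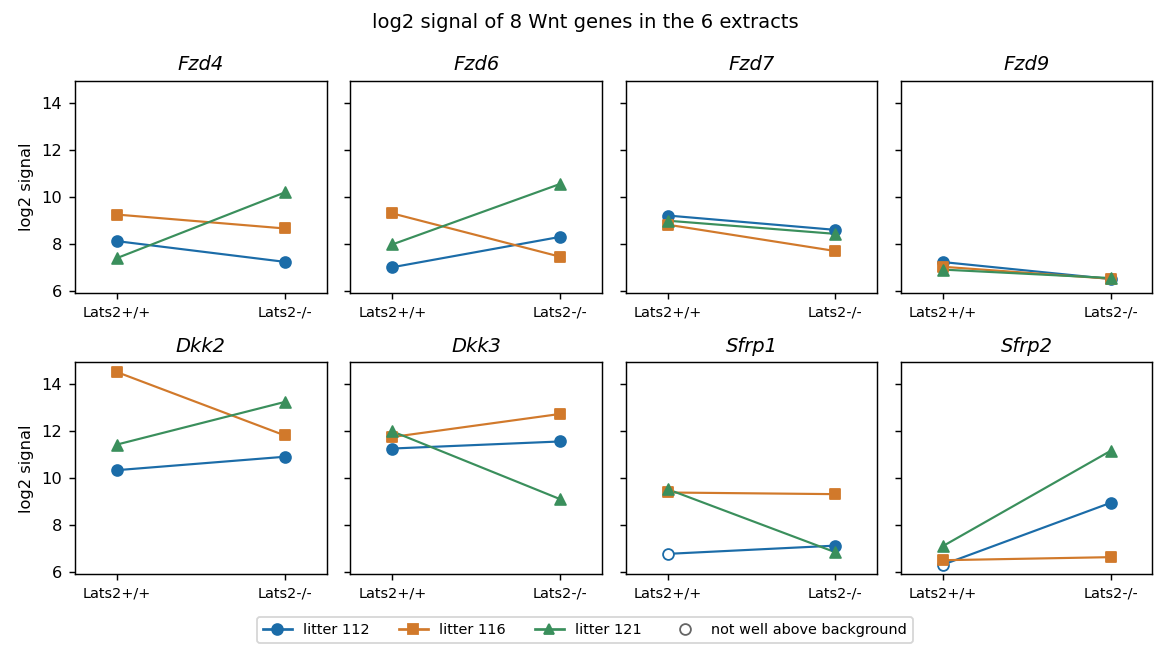
Log2 signal of 8 genes in the Lats2+/+ and Lats2-/- extracts, with a line joining the 2 extracts of each litter, open symbols for extracts not well above background, and 1 probe a gene. The lines of Fzd7 and Fzd9 all fall from Lats2+/+ to Lats2-/-, whereas those of Fzd4, Fzd6 and Dkk2 cross and those of Dkk3 and Sfrp1 fall steeply in litter 121.

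Of the nuclear factors and the target gene, Lef1 and Tcf7 were tested, and neither had an unadjusted limma p under 0.05. Lef1 was read at 7.94, 6.82 and 6.78 in Lats2-/- cells of litters 112, 116 and 121, and at 7.78, 6.80 and 6.41 in Lats2+/+ cells. Both extracts of litter 112 were higher than the others, and the mean ratio was 0.18 ± 0.18 (SD, n = 3, limma adjusted p = 0.773), or 0.08 without litter 121 and 0.39 with the processed signals. Tcf7 had ratios of 0.03, -0.40 and 0.01, a mean of -0.12 ± 0.24 (SD, n = 3, limma adjusted p = 0.867), or 0.02 without litter 116, where the Lats2+/+ extract was at least 1.32-fold higher. It was above background in 3 of the 6 extracts, 1 of Lats2-/- and 2 of Lats2+/+ cells, so that it entered the test through Lats2+/+ alone. Its mean was -0.94 with the processed signals. A second Tcf7 probe, not tested, had ratios of -0.03, 0.01 and 0.02. Axin2, a negative feedback component, had log2 signals of 6.00, 6.28 and 6.15 in Lats2-/- cells and of 5.87, 6.91 and 5.97 in Lats2+/+ cells. With 1 extract above background it was not tested, and these signals do not show whether its level differed between genotypes.

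Other genes of Wnt signalling were read from a list of 72, of which 63 were tested. An unadjusted limma p under 0.05 was found for 8 of the 63 (12.7%), against 7.6% of all tested genes: 6 were higher in Lats2-/- cells (9.52%, against 4.15% of all genes) and 2 lower (3.17%, against 3.45%). This split depended on the processing, at 3 higher and 2 lower (7.94%, against 6.8% of all genes) with the processed signals, 1 and 2 (4.76%, against 5.83%) with the methods' t-test, and 0 and 2 (3.17%, against 2.76%) when the pairing by litter was ignored. Without litter 121 it was 3 and 0 (4.76%, against 7.54%). As reported, none of the 63 passed the adjusted test. Over the 63 genes the mean log2 ratio had a median of 0.07, against 0.01 over all genes. Wls, which carries Wnt proteins to the cell surface and is named Gpr177 in the array design, had signals of 11.57, 12.71 and 13.69 in Lats2-/- cells and of 10.81, 11.06 and 12.29 in Lats2+/+ cells. It was higher in the Lats2-/- extract of every litter, by 0.76, 1.65 and 1.40, although the groups overlapped. The mean of 1.27 ± 0.46 (SD, n = 3, limma adjusted p = 0.711) compared with 0.91 for its second probe, which also had an unadjusted limma p under 0.05. Porcn, the acyltransferase that adds the lipid to Wnt proteins, was higher by 0.65, 0.19 and 0.33 (mean 0.39).

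Tcf7l1, a nuclear factor that mostly represses Wnt targets and stands as Tcf3 in the array design, was higher in Lats2-/- cells by 0.40, 0.97 and 0.93 (mean 0.77), and its second probe gave 0.68, also with an unadjusted limma p under 0.05. Apcdd1, a membrane-bound Wnt inhibitor, had a mean of 0.75, which a dim second probe at -0.01 did not show. Nfatc1, a factor of calcium signalling, had a mean of 0.61, with 0.45 by its second probe. Bcl9, a coactivator of beta-catenin, had a mean of 0.42, and its second tested probe had 0.11. On the lower side were Ccnd1, cyclin D1, at -0.39, -0.29 and -0.60 (mean -0.43), and Prickle1, a planar cell polarity gene, with a mean of -0.28. All 8 had a limma adjusted p of 0.711.

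**Figure D5:**
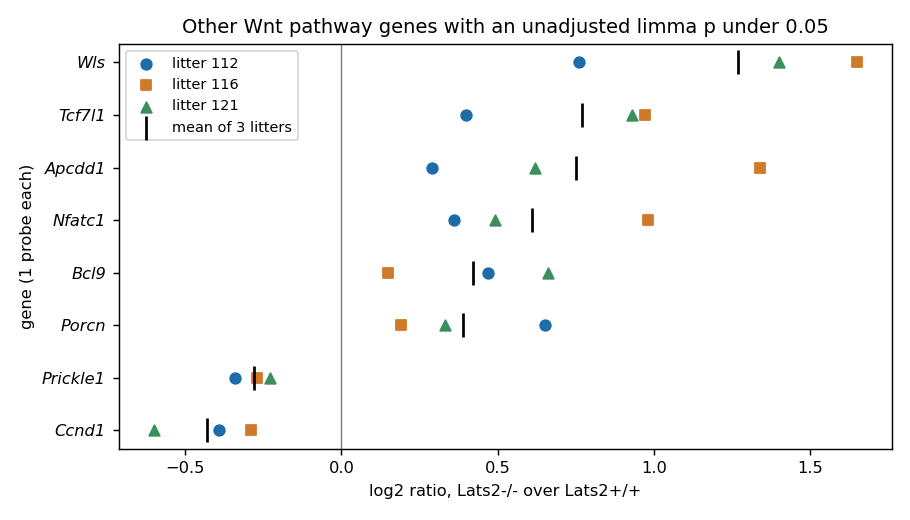
Log2 ratio of Lats2-/- over Lats2+/+ in litters 112, 116 and 121, with the mean as a tick, for the 8 other Wnt pathway genes with an unadjusted limma p under 0.05. Wls lies farthest from 0 with a mean of 1.27, and Prickle1 and Ccnd1 are the 2 genes on the lower side.

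Markers of the labelled cell type were present, and their levels also differed between the extracts of a litter. All 10 fibroblast markers were tested, and 8 were above background in all 6 extracts. Their median log2 ratios over litters 112, 116 and 121 were 0.11, 2.40 and -0.95, with 0 of 10 higher in the Lats2-/- extract of litter 121. Single markers in litter 121 ran from -4.96 for Pdgfra, not well above background in that Lats2-/- extract, to -0.07 for Vim. The summed linear signal of the 10 markers ran from 215799 to 497673 in Lats2-/- and from 186521 to 400672 in Lats2+/+ extracts. The 4 smooth muscle markers, all tested, had medians of -0.34, 2.34 and 0.30, with summed signals from 117017 to 265991 and from 15952 to 206799. The lowest of these was the Lats2+/+ extract of litter 116, the extract in which Dkk2 was highest and Wnt5a lowest. The 19 proliferation genes, all tested, had medians of -0.58, -0.55 and 0.34, with summed signals from 55611 to 69725 in Lats2-/- and from 46555 to 109342 in Lats2+/+ extracts. Of the 6 epithelial markers, 5 were above background in some extract: Krt5 in all 6 extracts, Krt14 in 5, Krt8 and Krt18 in Lats2+/+ cells of litter 116, and Cdh1 in Lats2-/- cells of litter 121, there at least 2.08-fold over Lats2+/+ cells. Epcam was in none. Their summed signal was 455 to 515 in Lats2-/- and 438 to 512 in Lats2+/+ extracts. Of the 6 endothelial markers, Tek was above background in 5 extracts and Kdr in 1, and Cdh5, Emcn, Pecam1 and Tie1 in none, with summed signals of 407 to 463 and 405 to 423. Of the 6 blood and macrophage markers, Cd68 was above background in 4 extracts, Csf1r in 2 and Hbb-bh1 in 1, and Adgre1, Itgam and Ptprc in none, with summed signals of 416 to 493 and 431 to 485.

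Of the 6 neural markers, 4 were tested and Gfap and Sox2 were in no extract. Nes, nestin, had log2 signals of 7.50, 8.32 and 12.52 in Lats2-/- cells and of 7.86, 7.55 and 8.42 in Lats2+/+ cells, a ratio of 4.10 in litter 121, the litter that carried 5 of the 6 members with a 4-fold difference. The summed neural signal was 7833 in that Lats2-/- extract and 947 to 2132 in the other 5, while the list's median ratios were -0.60, 0.58 and 0.16. Nes was the brightest of the list in that extract. The other tested neural markers, Map2, Sox10 and Tubb3, had ratios of -0.09, -0.09 and 0.40 in litter 121. Skeletal muscle was represented by Acta1 alone, with ratios of -0.47, 3.48 and 0.35, and Des, Myf5, Myod1 and Myog were in no extract. The summed signal of that list ran from 3887 to 10567 and from 645 to 8347. Of the 5 cartilage and bone markers, 4 were tested, with medians of 0.24, 0.74 and -0.25 and summed signals of 2303 to 3080 and 1462 to 4243. Among them Sox9, a chondrocyte factor, had ratios of 0.71, 1.41 and -3.71, the last in litter 121. Litters 112 and 116 were on 1 slide and litter 121 on the other. The part of these differences in the litter ratios of the Wnt genes was not tested.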

How the data were processed

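RNA of 6 extracts was measured on 8 Agilent 2-colour arrays. The authors hybridised both genotypes of a litter together and extracted the scans with Feature Extraction (10.7.3.1 per the file headers, 10.5.1.1 per the submitters' processing notes). The deposited files give spot and background intensity on a linear scale, unnormalized, processed intensity, which had been background-subtracted and dye-normalized, and log10 ratios of the processed signals. A deposited value table of all arrays has log10 ratios of Lats2-/- over Lats2+/+, within 0.005 of those of the scanner files.

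Mean intensities were corrected with normexp (offset 50) in limma 3.58.1 (R 4.3.3), control spots and 860 outlier spots were left out, no gene spot was saturated, and loess was applied within arrays. Repeat spots and then the arrays of a litter were averaged, so that n is 3. The labels pair the genotypes by litter. Log2 signals per extract came from Aquantile between arrays. Probes entered the test when at least 2 extracts of 1 genotype exceeded background by the well-above-background flag, as set by most arrays of the extract. lmFit and eBayes compared the litter ratios with 0 in a two-sided test, and p-values were adjusted by Benjamini-Hochberg over 22642 probes. Each gene was read at its tested probe with the highest mean signal, and 14 of the 42 genes have several probes. Where only 1 genotype of a litter exceeded background and no array did so for the partner, a bound is given, taken on each array against the dimmest flagged probe or against the partner's own signal, whichever was brighter. The fit was tested on simulated data.

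Genes described one by one were those with an unadjusted p under 0.05, those at least 2-fold different in 1 direction in each litter, those at least 4-fold different in any litter, and up to 3 per role with the highest signal. Members, lists and rules were chosen with earlier results of these data known. Older gene names were updated through RefSeq accessions and synonyms. A probe of another name whose accession belongs to Fzd3 is not a member by the name rule. Precision is limited by how few arrays and litters there are. Alternatives were other background corrections and scalings, filters on dim probes, the methods' t-test, blocks, and each litter left out.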

Additional observations from a re-analysis of the deposited data

How the results depend on the processing

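Fzd7 stayed lower under every alternative, between -0.86 and -0.59 with a litter left out. Its unadjusted p stayed under 0.05, only narrowly by the methods' t-test, leaving aside the slide as a block, from which no p is read. Fzd9 was -0.61 to -0.43 with a litter left out, -1.52 with the processed signals and the value table, and -0.78 with an offset of 16. Among the alternatives read by p, Fzd9 lost a p under 0.05 only without litter 112 (-0.43). It was not tested where all 6 extracts had to be above background. The count of members with an unadjusted p under 0.05, 2 as reported, was 4 with an offset of 16 (17.4%, against 7.25% of all genes). It was 5 with the processed signals (21.7%, against 6.8%) and 5 with the value table (21.7%, against 6.78%). Among probes above background in all 6 extracts it was 1 of 16 (6.25%, against 7.97%). It was 5 with arrays taken singly and litter as a random block (21.7%, against 15%). When single litters were left out it was 2 to 5 (8.7% to 21.7%, against 5.79% to 7.54%). For the other pathway genes, 8 as reported, it was 5 with the processed signals (7.94%, against 6.8%), 5 with the value table (7.94%, against 6.78%), 3 with the methods' t-test (4.76%, against 5.83%), 2 with no replicate block, which ignores the pairing (3.17%, against 2.76%), 14 with arrays singly (22.2%, against 15%), and 6, 6 and 3 without litters 112, 116 and 121 (9.52%, 9.52% and 4.76%, against 5.79%, 6.33% and 7.54%). Without the pairing the members' count was 2 (8.7%, against 2.76% of all genes). Over all probes the 1549 became 2623 with no filter, 554 without the pairing, 2999 with arrays singly and 1145 to 1458 when single litters were left out. The adjusted count was 0 under every alternative but arrays singly, which gave 341. That fit counts arrays of the same extracts as further measurements. The count of members at least 4-fold different in a litter, 6, was 2 to 6 with a litter left out, an alternative chosen after seeing the data. Sfrp2 had a limma p under 0.05 with an offset of 16, the processed signals, the value table, arrays singly and without litter 116. Its means there were 2.29 to 3.68. In the fit with the slide as a block, litter 121 is alone on its slide, so that no p is read from it. Its means were -1.27 for Sfrp1, 1.03 for Fzd4, -1.12 for Dkk3, 0.37 for Dkk2 and -0.03 for Wnt9a. Wnt9a was also -0.01 with an offset of 16 and with median centring, and -0.1 with the processed signals and the value table. With a litter left out, means ran from -1.06 to 1.19 for Dkk2, -1.38 to 0.14 for Sfrp1, -0.73 to 1.1 for Fzd4, -0.28 to 1.93 for Fzd6, -1.29 to 0.64 for Dkk3, -0.31 to 0.25 for Wnt9a, -0.02 to 0.18 for Wnt6, 1.38 to 3.34 for Sfrp2, -0.79 to -0.20 for Fzd1 and -0.19 to 0.02 for Tcf7. The Tcf7 mean was -0.94 with the processed signals. The causes were not tested. Signal near background limits Wnt1, Wnt5b, Wnt7b, Wnt11, Fzd9, Sfrp5, Tcf7 and Axin2.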
